A study of Homo sapiens with 2 samples.

Results

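The genes of the CDK inhibitors, the proteins that hold back the kinases of the cell cycle, were followed in Hep3B, a long-established line of human hepatocellular carcinoma cells. The set was chosen by gene symbol and held 8 of the 43424 genes in the files: CDKN1A, CDKN1B and CDKN1C of the CIP/KIP family, CDKN2A, CDKN2B, CDKN2C and CDKN2D of the INK4 family, and CDKN3, which carries the same name stem but encodes a phosphatase. The series compared 1 library of wild-type Hep3B cells given the solvent dimethyl sulfoxide (DMSO) with 1 library of the same cells given an extract of the plant Glehnia littoralis (GLE), with apoptosis as its stated interest. At which dose and for how long the sequenced cells were exposed is not stated in the labels, whose viability assay ran for 24 h at up to 500 µg/mL. Each library was made from 500 ng of total RNA with a QuantSeq kit, in which reads start near the 3′ end of poly(A) transcripts.

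INK4 proteins are built of ankyrin repeats and bind CDK4 and CDK6, which keeps these kinases from their D-type cyclins. CIP/KIP proteins bind whole cyclin-CDK complexes, above all those of CDK2 with cyclins E and A, and p21 and p27 can also help cyclin D complexes to assemble. Both families act on the step at which RB is phosphorylated and E2F factors are released at the G1/S boundary. Hep3B is known to lack functional RB protein.

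The deposited counts summed to 5618328 in the control library and 3636351 in the GLE library. All 8 hepatocyte or hepatoma markers looked at (ALB, AFP, APOA1, APOB, TTR, SERPINA1, HNF4A and FGB) were counted in both libraries. Their sums were 42163 and 15286 counts, or 7297 and 4323 CPM, normalised read counts scaled to the effective library size. SERPINA1 alone was higher with GLE (128 and 186 CPM), and the others were lower, ALB among them (4325 and 2708 CPM). Of the markers of other cell types, the leukocyte gene CD3E and the endothelial genes VWF, CDH5 and KDR had 0 counts in both libraries, and PTPRC had 1 and 3. The leukocyte list summed to 490 and 464 CPM, nearly all of it LYZ. The 4 fibroblast genes summed to 21 and 52 counts, among which COL1A1 had 4 and 29, and the 4 endothelial genes to 36 and 1, all of them PECAM1. The part of these differences in the results below was not tested.

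The start regions of the members on which the results turn are shown first, from RefSeq on GRCh38.p14. Each window runs from 250 bases before the annotated start to 50 bases after it, 5′ to 3′ on the gene's strand. CDKN2D and CDKN1A are shown because they had the highest ratios of their families, and CDKN2A because its 2 starts, for p14ARF and for p16, feed 1 count. The windows are chr19:10568930-10569229 (minus strand) for CDKN2D, chr6:36678464-36678763 (plus strand) for CDKN1A, and chr9:21974808-21975107 and chr9:21995275-21995574 (minus strand) for the p16 and the p14ARF start of CDKN2A. Capitals mark matches, on either strand, to letters that stand for the binding sites of known factors. GGGCGG is the box bound by SP1 and its relatives, and CCAAT is the box bound by NF-Y. The TATA box was searched as TATAAA, and the E-box, which MYC and related proteins bind, as CACGTG. Sites of the ATF and CREB stress factors were searched by their core TGACGT, and heat shock elements by the core GAANNTTC. For E2F factors a first form, TTCCCGC, was used, along with another form of the site that reads TTGGCGC.
CDKN2D: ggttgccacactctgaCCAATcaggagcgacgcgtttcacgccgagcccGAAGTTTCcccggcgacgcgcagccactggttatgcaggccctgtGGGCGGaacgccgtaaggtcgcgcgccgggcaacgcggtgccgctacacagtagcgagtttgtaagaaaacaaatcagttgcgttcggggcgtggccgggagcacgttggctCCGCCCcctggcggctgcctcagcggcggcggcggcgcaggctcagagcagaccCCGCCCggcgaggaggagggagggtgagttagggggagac
CDKN1A: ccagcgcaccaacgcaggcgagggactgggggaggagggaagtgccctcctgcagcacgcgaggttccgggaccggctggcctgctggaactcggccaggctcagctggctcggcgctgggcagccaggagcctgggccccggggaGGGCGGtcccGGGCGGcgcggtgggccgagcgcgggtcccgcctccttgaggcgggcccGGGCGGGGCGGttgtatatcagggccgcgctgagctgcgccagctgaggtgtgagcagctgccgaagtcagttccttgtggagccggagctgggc
CDKN2A, p16 start: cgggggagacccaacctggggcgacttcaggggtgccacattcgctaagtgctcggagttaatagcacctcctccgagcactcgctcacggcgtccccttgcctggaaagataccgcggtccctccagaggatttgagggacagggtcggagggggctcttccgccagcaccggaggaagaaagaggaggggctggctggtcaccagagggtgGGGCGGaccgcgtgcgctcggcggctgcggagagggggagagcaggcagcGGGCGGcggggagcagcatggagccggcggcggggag
CDKN2A, p14ARF start: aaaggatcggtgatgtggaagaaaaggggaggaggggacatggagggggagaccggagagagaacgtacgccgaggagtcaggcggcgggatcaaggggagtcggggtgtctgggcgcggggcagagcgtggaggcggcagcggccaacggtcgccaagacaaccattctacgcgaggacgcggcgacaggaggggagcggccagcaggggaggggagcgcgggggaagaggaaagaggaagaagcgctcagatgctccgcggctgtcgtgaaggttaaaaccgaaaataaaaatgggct

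The CDKN2D window held 3 SP1 boxes, whose first bases lie at -156, -44 and 11 from the start, 1 CCAAT box at -234 and 1 heat shock element core at -201. The CDKN1A window held 4 SP1 boxes, at -104, -94, -45 and -40, the last 2 of which overlap by 1 base. The p16 window of CDKN2A held 2 SP1 boxes, and its p14ARF window had no match to these letters. SP1 boxes are common, with a match in 45% of the 35116 RefSeq windows of this length, against 34.6% for CCAAT and 6.77% for the heat shock core. Among the 10 windows of the 7 members that matched the promoter table, the heat shock core occurred in that of CDKN2D alone, and the E2F letters in 1 of 3 CDKN2C windows. A match describes these letters and is no evidence of binding. CDKN1C was not among the matched members.

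CDKN2D and CDKN1C were the members whose counts differed most between the libraries, and they lay in opposite directions. CDKN2D was 25.2-fold higher in the GLE library and CDKN1C 3.09-fold lower. CDKN1A, CDKN2A and CDKN3 were higher by less than 2-fold, and CDKN1B, CDKN2B and CDKN2C showed no difference detectable at this depth. With 1 library per group no test between conditions was possible. Each ratio is therefore given with a 95% counting interval (exact Clopper-Pearson), which covers the error of counting reads and not the variation between cultures. In these bulk libraries, fewer cells that make a transcript and less of it per cell cannot be told apart.

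**Figure D1:**
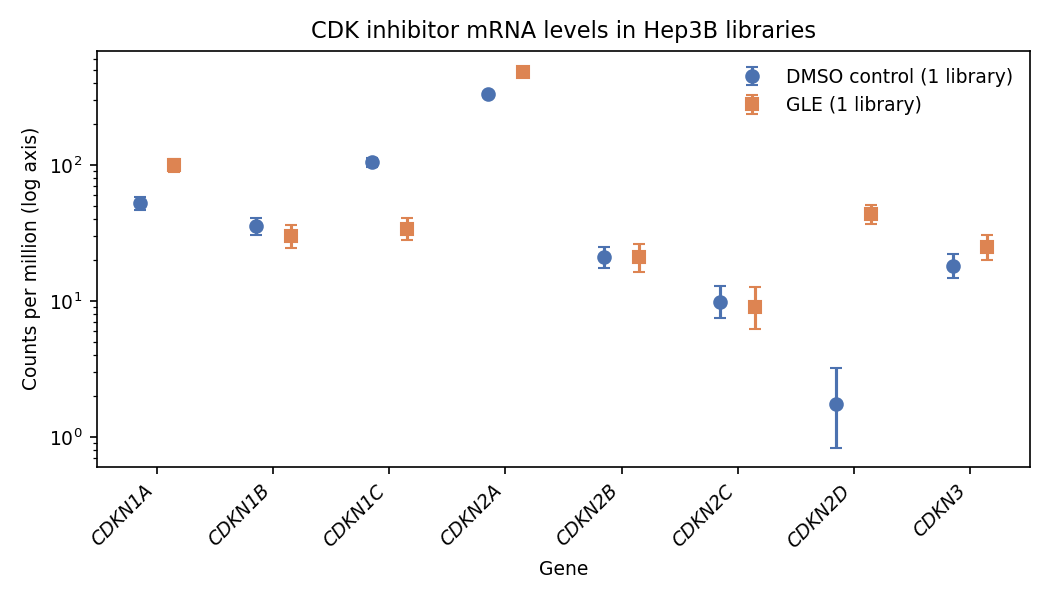
Level of each CDK inhibitor gene in CPM (log axis) in the DMSO control library (circles) and the GLE library (squares), with exact 95% Poisson intervals of the counts as bars. CDKN2D moves from the lowest place, at 1.73, to 43.6, and CDKN1C from 105 to 33.9.

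CDKN2D encodes p19INK4d, an inhibitor of CDK4 and CDK6. It lies on chromosome 19 (10566460 to 10568979, minus strand). It had 10 counts in the control (1.73 CPM, exact Poisson 95% interval 0.830 to 3.18) and 154 in the GLE library (43.6 CPM, 36.9 to 51.0). The ratio was 25.2 (counting interval 13.3 to 53.5). CDKN2D thus held the lowest level of the 8 genes in the control and the third highest in the GLE library. Its ratio ranked 11 among the 11068 measured genes, those with at least 30 counts over both libraries, and 9 when genes were ranked by the lower end of the interval. The 8 genes ahead of it by that measure were HSPA6, MT2A, CFAP53, LOC124904619, MT1G, RPL13AP3, GADD45B and DHRS2. Of these, CFAP53, MT1G, RPL13AP3 and DHRS2 had 0 control counts. Their ratios, taken with a floor of 3 counts in place of 0, ranked below that of CDKN2D. The width of the interval comes mostly from the 10 control counts, and thinning the control reads to the GLE total gave a ratio of 33.0.

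The other INK4 genes did not share that size of difference. CDKN2A, on chromosome 9 (21967752 to 21995324, minus strand), encodes p16INK4a and, from an alternative first exon read in another frame, p14ARF, which binds MDM2. It had 1919 control counts (332 CPM, 317 to 347) and 1703 GLE counts (482 CPM, 459 to 505), and was 1.45-fold higher (1.36 to 1.55). CDKN2A held the highest level of the 8 genes in both libraries. In GENCODE release 29, 4 of its basic coding transcripts start at the p14ARF exon, all 4 of which end in the same 3′ region as 4 of the 6 others, so 3′ counts do not tell p16 from p14ARF. CDKN2B, which encodes p15INK4b, a target of TGF-beta signalling, had 121 and 74 counts (20.9 CPM in both libraries) and a ratio of 0.999 (0.738 to 1.35). CDKN2C, which encodes p18INK4c, had 57 and 32 counts (9.87 and 9.05 CPM) and a ratio of 0.917 (0.576 to 1.44). Both intervals include 1, and they leave room for differences up to their ends.

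Among the CIP/KIP genes, 1 was higher, 1 was lower and 1 showed no detectable difference. CDKN1A, which encodes p21, lies on chromosome 6 (36676463 to 36687332). It had 302 control counts (52.3 CPM, 46.5 to 58.5) and 352 GLE counts (99.6 CPM, 89.4 to 111), 1.90-fold higher (1.63 to 2.23). CDKN1C encodes p57, an inhibitor expressed from the maternal allele of an imprinted region, on chromosome 11 (2883218 to 2885775, minus strand). It had 605 control counts (105 CPM, 96.5 to 113) and 120 GLE counts (33.9 CPM, 28.1 to 40.6), 3.09-fold lower (2.53 to 3.78). Its ratio ranked 392 from the lowest of the 11068 measured genes. CDKN1B, which encodes p27 and is controlled to a large degree by protein turnover, had 205 and 106 counts (35.5 and 29.98 CPM) and a ratio of 0.845 (0.662 to 1.07).

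CDKN3 encodes a phosphatase that removes the activating phosphate of CDK2 and is itself a gene of proliferating cells. It had 105 and 88 counts (18.2 and 24.9 CPM) and a ratio of 1.37 (1.02 to 1.84). Its call rests on the scaling, since the interval included 1 with scaling by total counts (1.29, 0.964 to 1.74), with library sizes that leave out mitochondrial and the most abundant genes (1.34, 0.997 to 1.79) and with a trend in GC content removed (1.30, 0.967 to 1.74).

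**Figure D2:**
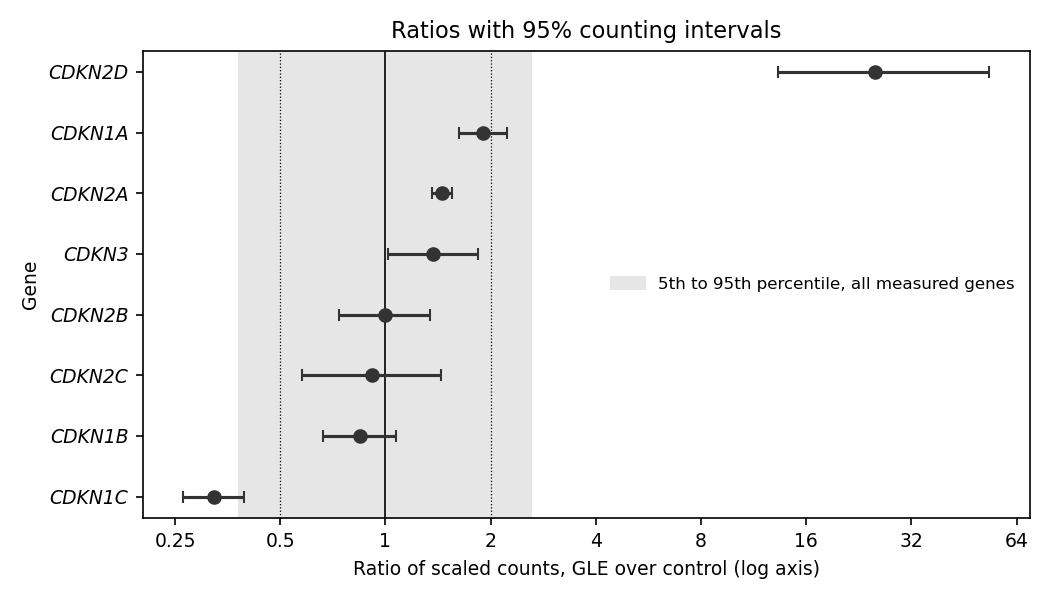
Ratio of scaled counts, GLE over control, for each of the 8 genes (log axis), with 95% counting intervals as bars. The grey band spans the 5th to the 95th percentile of all 11068 measured genes and the dotted lines mark 2-fold. CDKN2D, at 25.2, lies above the band and CDKN1C, at 0.324, below it.

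All 8 members had at least 30 counts and were measured. A ratio of at least 2 was found for 1 of 8, against 9.54% of measured genes, and a ratio of 0.5 or less for 1 of 8, against 10.5%. The whole interval lay above 1 for 4 members, CDKN1A, CDKN2A, CDKN2D and CDKN3, against 27.7% of measured genes, and below 1 for CDKN1C alone, against 30.1%. An interval wholly above 2 was found for CDKN2D, against 3.82% of measured genes, and one wholly below 0.5 for CDKN1C, against 2.86%. At the 2-fold criterion, 1 of 8 in each direction is near the share of all measured genes, so it is no result about the set as a whole. Whether an interval excludes 1 also depends on the number of counts, for which the shares of all measured genes were not matched.

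The members were also compared with each other within the same libraries, where the scaling between libraries cancels. Of the 28 pairs, the counting interval of the ratio of ratios excluded 1 for 21. All pairs that hold CDKN2D or CDKN1C were among these. The pairs reuse the same members, and no share over pairs of other genes was computed, so the count is no result about the set. CDKN2D was 26.9 times (12.1 to 65.7) as high relative to CDKN2C in the GLE library as in the control, and 17.3 times (9.14 to 37.0) relative to CDKN2A. CDKN1A was 5.87 times (4.55 to 7.60) as high relative to CDKN1C. CDKN1B, CDKN2B and CDKN2C could not be told from each other (CDKN1B over CDKN2B 0.846, 0.573 to 1.25, and CDKN2B over CDKN2C 1.09, 0.628 to 1.91). CDKN2A and CDKN3 had ratios as close (1.06, 0.784 to 1.43).

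The order of levels changed between the libraries. A 3′ library gives about one tag per transcript, so CPM was set side by side between genes without division by length, although capture at each 3′ end can differ. In the control the order by CPM was CDKN2A, CDKN1C, CDKN1A, CDKN1B, CDKN2B, CDKN3, CDKN2C and CDKN2D, and the Poisson intervals of neighbours overlapped for CDKN2B and CDKN3 alone. In the GLE library it was CDKN2A, CDKN1A, CDKN2D, CDKN1C, CDKN1B, CDKN3, CDKN2B and CDKN2C. There, the intervals of each neighbouring pair from CDKN2D down to CDKN2B overlapped, while CDKN2A, CDKN1A and CDKN2C stood apart.

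The make-up of each family shifted accordingly. CDKN1C gave 54.4% of CIP/KIP counts with DMSO (Clopper-Pearson 95% interval 51.4 to 57.4) and 20.8% with GLE (17.5 to 24.3). CDKN1A went from 27.2% (24.6 to 29.9) to 60.9% (56.8 to 64.9), and CDKN1B stayed at 18.4% (16.2 to 20.8) and 18.3% (15.3 to 21.7). The most counted CIP/KIP gene was therefore CDKN1C in the control and CDKN1A in the GLE library. In the INK4 family, CDKN2A gave 91.1% (89.8 to 92.3) and 86.8% (85.2 to 88.2) of counts. CDKN2D went from 0.475% (0.228 to 0.871) to 7.85% (6.69 to 9.12), above CDKN2B at 3.77% (2.97 to 4.71) and CDKN2C at 1.63% (1.12 to 2.29) in the GLE library.

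**Figure D3:**
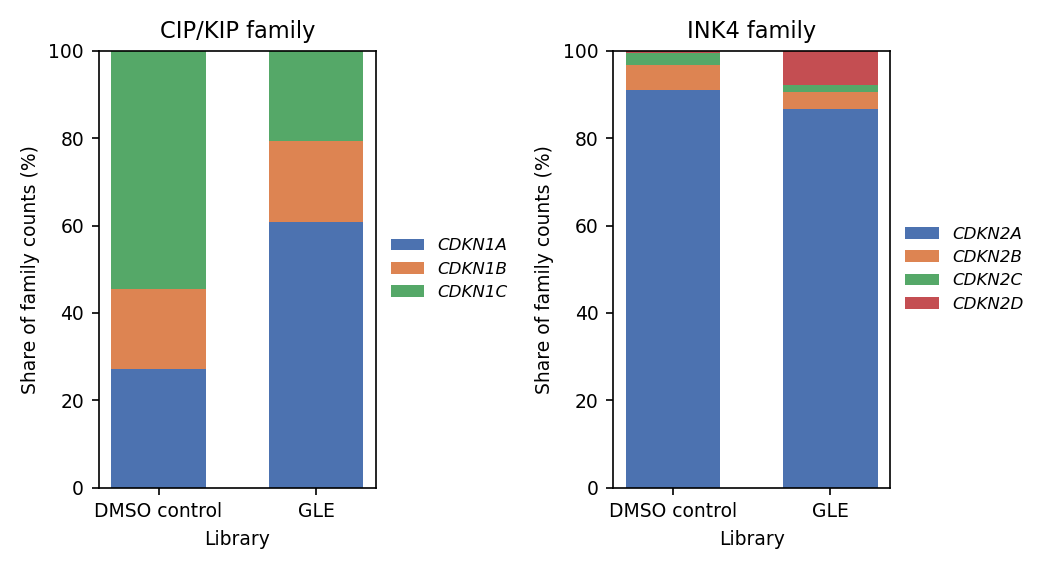
Share of each gene in the summed counts of its family (percent) in the DMSO control and the GLE library, CIP/KIP at the left and INK4 at the right. CDKN1C shrinks from 54.4% to 20.8% of CIP/KIP counts, and CDKN2D grows from 0.475% to 7.85% of INK4 counts.

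The INK4 sum was higher in the GLE library and the CIP/KIP sum lower, both by less than 2-fold. INK4 counts summed to 365 CPM with DMSO and 555 CPM with GLE, 1.52-fold higher (1.43 to 1.62), and 1.41-fold (1.32 to 1.502) without CDKN2D. Without CDKN2A, which holds most of the counts, the sum was 2.26-fold higher (1.87 to 2.74). It then came to 188 and 260 counts, of which CDKN2D gave 10 and 154. CDKN2B and CDKN2C had ratios of 0.999 and 0.917, so this higher sum rested on CDKN2D. CIP/KIP counts summed to 192 and 163 CPM, a ratio of 0.849 (0.767 to 0.940), and CDKN1A with CDKN1B alone gave 1.48 (1.30 to 1.68). The side on which the CIP/KIP sum lay was thus set by CDKN1C.

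Kinases and cyclins of the cell cycle lay on both sides. A list of 17 cyclin and CDK genes also held CDK7, CCNH and MNAT1, which are not targets of these inhibitors. Of the 17, 14 were measured. A 2-fold higher value was reached by 1 of them, CDK7, and a 2-fold lower value by 1. Their median log2 ratio was 0.20, against -0.04 over all measured genes. The interval lay above 1 for 7 of 14, against 27.7% of all measured genes, and CDK7, CCNH and MNAT1 were among these. It lay below 1 for 5 of 14, against 30.1%. These shares were not matched for the number of counts, on which the width of an interval depends. For this and the 4 lists that follow, the shares of all measured genes at least 2-fold higher and lower were 9.54% and 10.5%. CDK4, an INK4 target, had 1533 and 583 counts, 1.61-fold lower (1.46 to 1.77), while CDK6, the other INK4 target, had a ratio of 1.00 (0.915 to 1.10). CDK2, the main CIP/KIP target, was 1.42-fold lower (1.28 to 1.57), and CDK1, the mitotic kinase, 1.58-fold higher (1.41 to 1.76). Cyclin E1 (CCNE1), the partner of CDK2 at the start of S phase, was 2.54-fold lower (1.87 to 3.53), and cyclin D1 (CCND1) 1.86-fold lower (1.51 to 2.30). CCND3 had a ratio of 0.712 (0.488 to 1.02), and CCND2, with 9 and 18 counts, was below the minimum of 30. Cyclin A2 (CCNA2) was 1.80-fold higher (1.504 to 2.16) and CDK7, the kinase that activates other CDKs, 2.35-fold higher (1.67 to 3.34).

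Set against their kinases within each library, INK4 counts came to 0.759 per count of CDK4 plus CDK6 with DMSO and 1.46 with GLE, a ratio of 1.92 (1.76 to 2.10). CDKN2D alone came to 0.0036 and 0.114. CDKN1A came to 0.229 per count of CDK2 with DMSO and 0.619 with GLE, 2.70 times as much (2.24 to 3.25), and CDKN1C to 0.459 and 0.211, 2.18 times less (1.74 to 2.73). The CIP/KIP sum per CDK2 count had a ratio of 1.20 (1.04 to 1.39). These are ratios of 3′ tags and do not measure protein.

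Downstream of the kinases, all 13 listed RB and E2F genes were measured, of which 0 were higher and 1 was lower by 2-fold or more, with a median log2 ratio of 0.04. RB1 had 37 and 28 counts, a ratio of 1.24 (0.729 to 2.08). RBL1, which encodes the RB relative p107, was 1.77-fold higher (1.42 to 2.21), E2F1 1.60-fold (1.26 to 2.03) and E2F7, a repressor, 1.63-fold (1.07 to 2.50). E2F2 was 3.50-fold lower (1.83 to 7.38), E2F6 1.71-fold (1.27 to 2.32) and TFDP1, the dimer partner of E2F factors, 1.43-fold (1.21 to 1.69).

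CIP/KIP proteins are removed by ubiquitin ligases, and 22 genes of their turnover and localisation were measured. Of these, 1 was higher and 0 were lower by 2-fold or more, with a median log2 ratio of -0.13. CKS2 was 2.16-fold (1.77 to 2.64) and CKS1B, the cofactor with which SKP2 recognises p27, 1.90-fold higher (1.75 to 2.07). UHMK1, a kinase that sends p27 out of the nucleus, was 1.82-fold higher (1.54 to 2.14). SKP2 itself was 1.24-fold lower (1.10 to 1.40). CUL4B was 1.88-fold (1.52 to 2.35), UBAC1, a subunit of a p27 ligase, 1.85-fold (1.498 to 2.30) and FZR1 1.84-fold (1.12 to 3.12) lower.

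Of 34 listed transcription and chromatin regulators of the inhibitor genes, 27 were measured. At least 2-fold higher values were found for 2 of 27 and at least 2-fold lower values for 5 of 27, against 9.54% and 10.5% of all measured genes, with a median log2 ratio of 0.11. MXD1, an antagonist of MYC at shared target genes, had 79 and 293 counts, 6.06-fold higher (4.71 to 7.87). FOXO3, an activator of CDKN1B, was 2.36-fold higher (2.06 to 2.72) and SP3, which binds GC boxes, 1.78-fold (1.40 to 2.28). ID1, which blocks the activation of CDKN2A by ETS factors, was 5.46-fold lower (4.58 to 6.57). CEBPA was 2.80-fold (2.49 to 3.16) and ETS2 2.55-fold (2.15 to 3.04) lower.

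A last list held 13 other genes linked to CDKs or to their inhibitors, all measured. Of these, 1 reached a 2-fold higher and 1 a 2-fold lower value, with a median log2 ratio of -0.09. CDKN2AIP, whose protein binds p14ARF, had 72 and 189 counts, 4.29-fold higher (3.25 to 5.71). WEE1, the kinase that puts the inhibitory phosphate on CDK1, was 1.88-fold higher (1.51 to 2.36), and CDC25C, the phosphatase that removes it, 1.74-fold (1.42 to 2.13). CABLES2 was 3.03-fold (1.84 to 5.25) and CDK2AP1, which binds CDK2, 1.30-fold (1.15 to 1.47) lower.

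**Figure D4:**
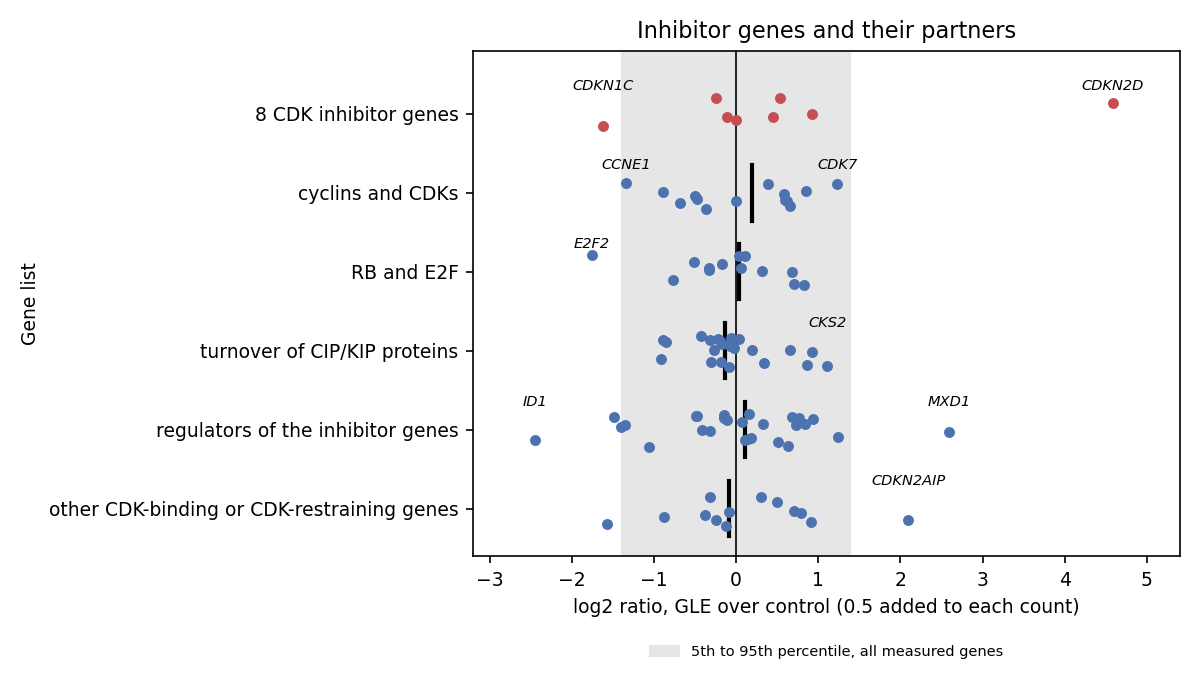
log2 ratio of GLE over control, with 0.5 added to each count, for the 8 inhibitor genes (red) and the measured genes of 5 partner lists (blue). Black bars mark list medians, which lie between -0.13 and 0.20, and the grey band spans the 5th to the 95th percentile of all measured genes. CDKN2D, MXD1 and CDKN2AIP lie above the band, and 6 genes lie below it, among them CDKN1C, ID1, E2F2, CABLES2 and CEBPA.

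The nearest measured genes on each chromosome were set beside each member, whatever their distance. Some lie far off, such as BMP4 at 440115 bases from CDKN3 and KCNQ1OT1 at 183223 bases from CDKN1C. Beside CDKN2D, KRI1, whose boundary lies 449 bases away on the same strand, had 298 and 177 counts and a ratio of 0.971 (0.801 to 1.17), and AP1M2, 3691 bases away on the other side, 1.05 (0.782 to 1.41). Neither showed a detectable difference next to the 25.2-fold higher count of CDKN2D. Beside CDKN1C in its imprinted region, PHLDA2, also expressed from the maternal allele, was 1.53-fold higher (1.33 to 1.77), and the long non-coding RNA KCNQ1OT1, made from the paternal allele, had 892 and 594 counts and a ratio of 1.09 (0.979 to 1.21). H19, further along the same chromosome, had 22 and 24 counts and a ratio of 1.78 (0.957 to 3.33). Of these 4 genes, CDKN1C alone had a ratio below 1.

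The INK4 locus on chromosome 9 also holds the antisense RNA CDKN2B-AS1 (ANRIL), known to recruit Polycomb proteins there. CDKN2B-AS1, on the opposite strand and overlapping CDKN2A and CDKN2B, had 32 and 7 counts, 2.80-fold lower (1.21 to 7.51), with an interval of the ratio that overlapped that of CDKN2B. MTAP, the nearest measured gene on the far side of CDKN2A, was 1.46-fold lower (1.14 to 1.88), and LOC124902130, within CDKN2A, 1.34-fold lower (1.03 to 1.74). Whether the counting used strand is not stated in the labels, so reads where CDKN2A, CDKN2B and CDKN2B-AS1 overlap cannot be told apart. CDKN2A-DT, PANDAR and LINC01629 had 0 counts in both libraries. Beside CDKN2C, FAF1, which starts 477 bases away on the other strand, was 1.23-fold higher (1.05 to 1.44), and beside CDKN1A, SRSF3 was 1.20-fold (1.11 to 1.29) and PPIL1 1.38-fold (1.08 to 1.75) higher. The 6 remaining neighbours, CREBL2, DDX47, DMRTA1, RNF11, BMP4 and CNIH1, had ratios from 0.890 (CREBL2, 0.641 to 1.23) to 1.68 (RNF11, 1.28 to 2.21).

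**Figure D5:**
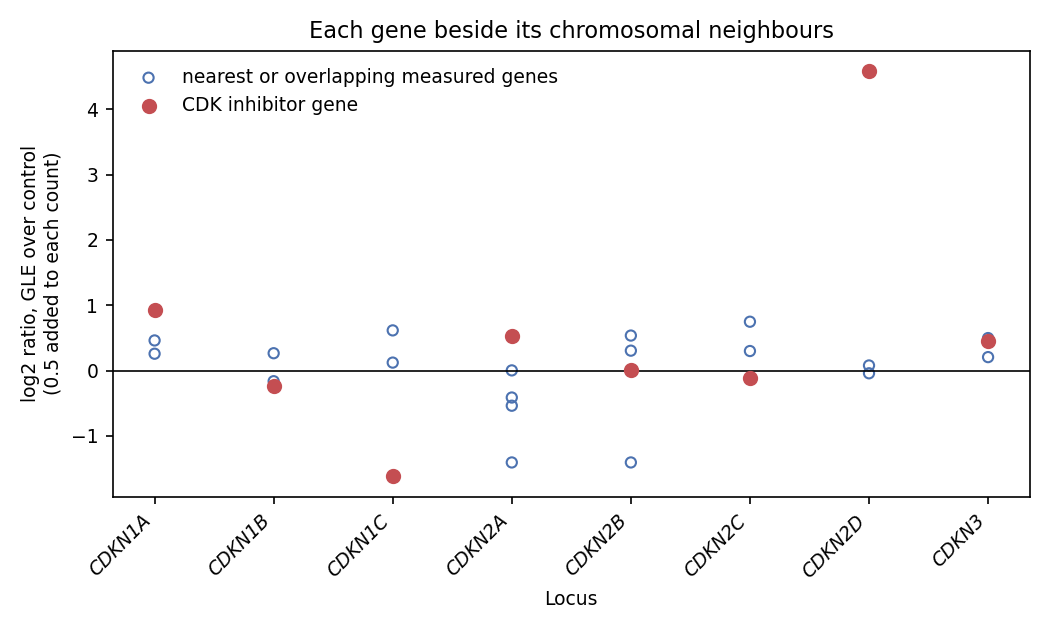
log2 ratio of GLE over control, with 0.5 added to each count, for each inhibitor gene (filled) and for its nearest or overlapping measured genes (open). CDKN2D stands at 4.59 with its neighbours at -0.04 and 0.08, and CDKN1C at -1.62 with its neighbours at 0.12 and 0.62.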

How the data were processed

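Messenger RNA of 2 Hep3B libraries, 1 DMSO control and 1 GLE, was analysed. The authors deposited raw whole-number read counts per gene symbol, without normalization. The submitters' processing notes name fastp, STAR, HTSeq and GRCh38. For versions, annotation and strand setting, the sources used here give nothing. Library sizes were adjusted with TMM factors from edgeR 4.0.16 under R 4.3.3, at 1.03 (control) and 0.972 (GLE). Ratios carry exact Clopper-Pearson 95% intervals of the GLE share of a gene's counts, turned into ratios. Reads carry no molecular identifiers here, so copies of 1 molecule could not be told apart, and the intervals may be too narrow. Intervals and the floor of 3 counts cover the error of counting reads only. For a gene without counts in 1 library, this floor stood in for the missing count in the ratio. With 1 library per group no test was made. Genes with at least 30 counts over both libraries were called measured, and 0.5 was added to each count for log2 ratios. Ratios of ratios are conditional odds ratios with exact intervals.

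Of 43424 symbols, 42735 matched the RefSeq gene table of GRCh38.p14, all 8 members among them. Transcript ends came from GENCODE release 29. The members and the lists were chosen with earlier results of these data known. Named were all members, the 3 highest and 3 lowest genes of each partner list by the end of the interval nearest to 1, 12 core genes whatever their values (1 of them is not reported here), the nearest measured neighbours, listed non-coding genes at the loci, and the 5 genes most like CDKN2D. Ratios were computed again under other scalings, count minimums, an added count of 2 and thinned control reads, and, chosen after seeing the data, with a lowess trend in transcript GC content removed. The computation was tested on simulated data. Python 3.11.15, SciPy 1.17.1, statsmodels 0.14.6, matplotlib 3.10.9 and DESeq2 1.42.0 (size factors only) were used.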

Additional observations from a re-analysis of the deposited data

How the results depend on the processing

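Across 8 other ways to scale, thin or correct the counts, each of the 8 ratios kept its side of 1 wherever its interval excluded 1. CDKN2D lay between 21.2 and 33.0, CDKN1C between 0.306 and 0.374, CDKN1A between 1.80 and 2.05, CDKN2A between 1.37 and 1.62, and CDKN3 between 1.29 and 1.41, with an interval that included 1 under 3 of the 8. Removing the GC trend, a correction chosen after seeing the data, gave 1.62 for CDKN2A, outside its counting interval, and brought the members at least 2-fold higher to 2, since CDKN1A was then at 2.05; 1 turnover gene was then at least 2-fold lower. Over all measured genes, those at least 2-fold higher and lower numbered 1056 and 1164 with a minimum of 30 counts, 1655 and 1840 with 10, 613 and 579 with 100, and 3644 and 2039 with no minimum beyond 1 count. The whole interval lay beyond 2-fold for 423 and 316. Under that criterion the cyclin and CDK list had 0 genes higher and 0 lower, and the RB and E2F list 0 lower. The turnover list had 0 higher, the regulators 3 lower and the other CDK-linked genes 0 lower. With a minimum of 10 counts or none, the cyclin and CDK list had 2 genes higher and the regulators 8 lower. With 100 counts, the RB and E2F list had 0 lower, and the other CDK-linked genes a median log2 ratio of 0.31 in place of -0.09. Thinned control reads gave 2 cyclin and CDK genes higher, and thinning or scaling by total counts gave 2 other CDK-linked genes lower. For these lists the cause was not tested beyond the change of minimum or criterion itself. No paired analysis was possible because each group has 1 library. The 10 control counts of CDKN2D limit the precision of its ratio, and no value here has a replicate check.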

Other observations

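Of the measured genes with a mean CPM within 2-fold of that of CDKN2D, the 5 nearest to its log2 ratio over these 2 libraries were LOC124904616, LOC124901344, RN7SK, PCLO and LOC124904619. RN7SK, the RNA that holds the transcription kinase CDK9 inactive together with HEXIM proteins, had 17 counts with DMSO and 198 with GLE, a ratio of 19.03 (95% counting interval 11.6 to 33.3). PCLO, a gene of presynaptic scaffolds, had 13 and 149 counts, a ratio of 18.7 (10.6 to 36.0). RN7SK is not polyadenylated as a rule, so its count in a library primed on poly(A) need not measure its level. HEXIM1, from the list of other CDK-linked genes, had 128 and 72 counts and a ratio of 0.919 (0.679 to 1.24). HEXIM2, from the same list, had 31 and 10 counts and a ratio of 0.527 (0.231 to 1.10). A likeness over 2 libraries says only that the ratios are of similar size.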
